A study of Homo sapiens with 4 samples.

Results

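The genes described here are lineage transcription factors and neural crest genes of OMM2.3, an established human uveal melanoma cell line. The list named 10 genes: MITF, SOX10, PAX3, MBP, TSPAN10, GYG2, EDNRB, KIT, S100B and ERBB3. A gene was kept when it had a level in the gene table and a peak in both m6A peak lists, which left 8 genes of the 8415 that met this condition among 14416 genes in the table. TSPAN10 was in the table with peaks in the control list only, so it is described beside them, which makes 9 genes, and KIT was not analysed here. The samples were OMM2.3 cells, wild type per the labels, exposed to meclofenamic acid (MA) or to DMSO, the vehicle (NC), in either case for 24 h. Each treatment gave 1 input library, which measures transcript levels, and 1 library immunoprecipitated with an antibody to N6-methyladenosine (m6A RIP), which gives a list of peaks, so there were 4 libraries and no replicates. No p-value or SD across samples exists for any difference below, and every difference describes these libraries only. The dose of MA is not given in the sources used here, and the cells are a single cultured line.

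Melanocytes arise from the neural crest, a migratory cell population of the vertebrate embryo that also gives rise to Schwann cells. SOX10 and PAX3 are transcription factors of the crest that activate MITF, and MITF in turn drives the genes of melanocyte differentiation and survival. EDNRB and ERBB3 are cell surface receptors through which endothelin and neuregulin signals act on crest derivatives, while MBP and S100B are best known as markers of glia. N6-methyladenosine is a modification of adenosine in mRNA, commonly found near stop codons and in 3' UTRs, and meclofenamic acid is known to inhibit FTO, an enzyme that removes it.

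The deposited levels imply library totals of 41630895 reads or fragments for the MA input and 37041597 for the NC input. Transcript levels are given as FPKM, which is scaled by gene length and by library total, so levels of different genes can be set side by side. The line carried melanocyte markers, 8 of 10 of which reached 1 FPKM in at least 1 input: PMEL, the melanosome fibre protein, was at 1251 FPKM in MA and 4027 FPKM in NC, and TYRP1 at 1327 FPKM in MA and 1921 FPKM in NC. OCA2 and SLC45A2 stayed under 1 FPKM in both inputs. Markers of other cell types had low summed levels, from 0.106 to 12.2 FPKM in MA and from 0.0934 to 5.10 FPKM in NC for fibroblasts, immune cells, endothelium and epithelium, with the fibroblast gene LUM (12.03 FPKM in MA, 4.96 FPKM in NC) making up nearly all of the highest sums. The neuron markers summed to 14.6 FPKM in MA and 22.8 FPKM in NC, most of it TUBB3, at 11.6 FPKM in MA and 17.6 FPKM in NC, while RBFOX3 was near 0. The oligodendrocyte markers MOG, MAG and OLIG2, which bear on MBP, were not analysed here.

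Of the 9 genes, 8 were lower and 1, ERBB3, was higher in the MA input than in the NC input. Of all tested genes, 43.3% were lower in MA. Differences are given as log2((MA FPKM + 1)/(NC FPKM + 1)), a scale that understates the difference of low genes, and a gene counts as 2-fold lower at or below a value of -1. On this scale 5 of the 9 genes were lower by 2-fold or more (MBP, TSPAN10, GYG2, EDNRB and S100B), against 2.98% of the 10564 genes that reached 1 FPKM in at least 1 input. None was higher by 2-fold or more, against 10.3% of all tested genes. The genes were chosen by name with the input levels in view, and all but TSPAN10 were also selected on having a peak in both lists. MBP, TSPAN10 and GYG2 stood among the lowest differences of the table. These counts therefore describe the choice and support nothing. The median over the 9 genes was -1.04, and that over all tested genes was 0.11. In bulk RNA, fewer cells that express a gene and less of its RNA per cell cannot be told apart.

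**Figure D1:**
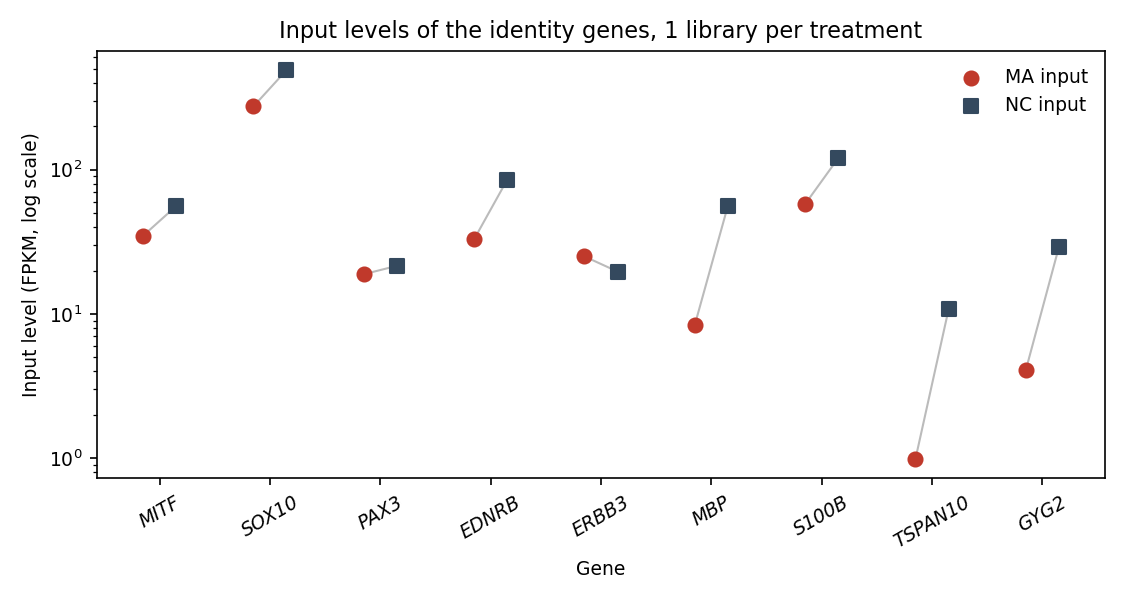
Level of each gene in the MA input (circle, left) and the NC input (square, right), in FPKM on a log scale, with 1 library per treatment and no error bars. The MA point lies below the NC point for 8 genes and above it for ERBB3, and the gap is widest for TSPAN10, at 0.993 FPKM in MA and 10.8 FPKM in NC.

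SOX10, the HMG-box factor of the crest and of melanocytes, was the most abundant of the genes, at 274 FPKM in MA and 488 FPKM in NC. By level it had rank 177 among all tested genes in the MA input and rank 108 in the NC input. Its log2 difference was -0.83, and the log2 ratio without a pseudocount was also -0.83 (95% interval -0.85 to -0.81). These intervals come from the smallest whole read counts that the FPKM values allow, 32875 in MA and 52177 in NC for SOX10. They cover counting error only, and variation between cultures or library preparations is not in them. SOX10 was thus lower in MA by more than counting error but by less than 2-fold, and 4.97% of all tested genes had a lower difference. The span of SOX10 overlaps that of POLR2F in RefSeq, and whether counting used the strand is not given in the sources used here.

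MITF, the basic helix-loop-helix factor that governs the melanocyte programme, was at 34.8 FPKM in MA and 55.9 FPKM in NC. Its log2 difference was -0.67, and its ratio without a pseudocount was -0.68 (-0.72 to -0.65). PAX3, a paired-box factor of crest progenitors, was at 18.9 FPKM in MA and 21.5 FPKM in NC. The log2 difference of PAX3, -0.18, was the smallest of the 9 genes in size, although the interval of its ratio (-0.26 to -0.12) did not include 0. Among the 3 transcription factors the order of levels was SOX10, MITF, PAX3 in both inputs. Of all tested genes, 8.22% had a lower difference than MITF and 31.5% a lower difference than PAX3.

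EDNRB, the endothelin receptor required by migrating melanoblasts, was at 32.9 FPKM in MA and 85.0 FPKM in NC. Its log2 difference was -1.34, and only 1.16% of tested genes lay lower. ERBB3, the receptor tyrosine kinase for neuregulin in Schwann cells and melanoma, was at 25.04 FPKM in MA and 19.7 FPKM in NC. The log2 difference of ERBB3 was 0.33 (ratio 0.35, 0.29 to 0.41), which stood above 62.1% of tested genes. The receptors of the list therefore differed in opposite directions between the same pair of libraries, and KIT, the other receptor on the list, was not analysed here.

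The glial markers MBP and S100B were lower in MA by unequal amounts. MBP, a structural protein of myelin, was at 8.40 FPKM in MA and 56.1 FPKM in NC, a log2 difference of -2.60. Only 5 of the 10564 tested genes had a lower difference. Its ratio without a pseudocount was -2.74 (-2.79 to -2.70), that is, 6.68-fold lower in MA. RefSeq promoters give MBP 2 start sites, and its FPKM does not separate transcripts by start site. MBP and EDNRB have antisense genes, MBP-AS1 and EDNRB-AS1, whose reads cannot be told apart from theirs if counting ignored the strand. S100B, a calcium-binding protein used as a marker of glia and melanocytic tumours, was at 57.7 FPKM in MA and 120 FPKM in NC. At -1.04 it lay at the edge of the 2-fold mark, and the interval of its ratio, -1.12 to -0.99, spanned that mark. With a pseudocount of 5 FPKM or with the values as TPM, S100B was no longer counted as 2-fold lower.

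GYG2 and TSPAN10 had nearly the same difference as MBP. GYG2, glycogenin 2, primes glycogen synthesis and was at 4.10 FPKM in MA and 29.1 FPKM in NC (-2.56, ratio -2.83, -2.95 to -2.71). TSPAN10, a member of the tetraspanin family of membrane proteins, was at 0.993 FPKM in MA and 10.8 FPKM in NC (-2.56). With 78 recovered reads in MA and 752 in NC, TSPAN10 had the widest interval of the 9 genes (ratio -3.44, -3.79 to -3.10). Because it was low in MA, its difference depended most on the pseudocount, at -3.31 with 0.1 FPKM and -1.39 with 5 FPKM. At a pseudocount of 1 FPKM the differences of MBP, GYG2 and TSPAN10 lay between -2.60 and -2.56. Without a pseudocount the interval of TSPAN10 lay below those of MBP and GYG2, which overlapped each other.

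**Figure D2:**
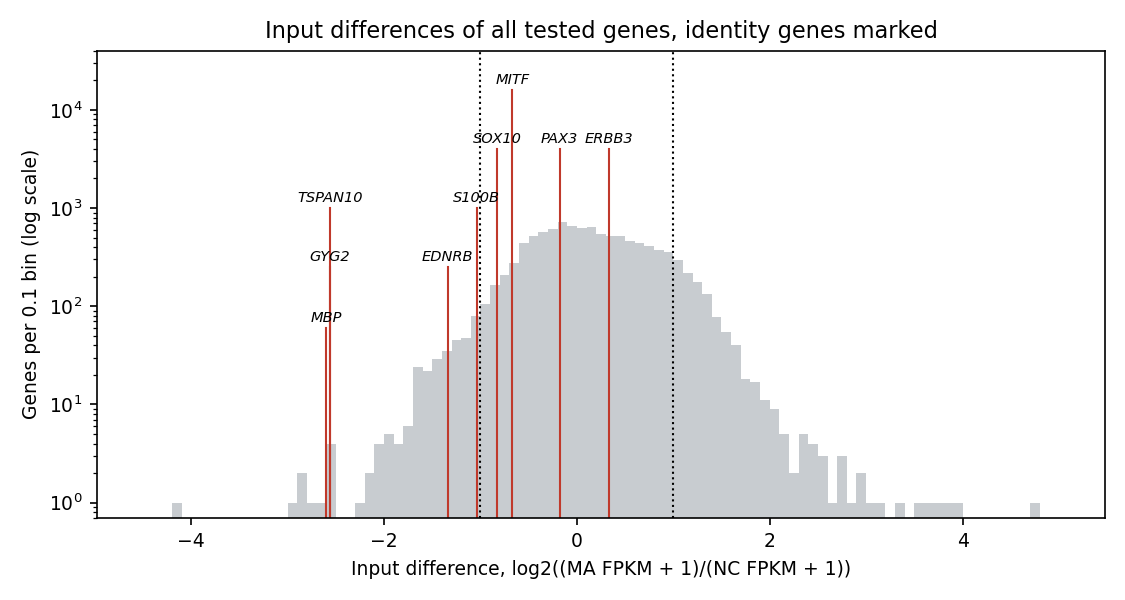
Histogram of the log2 input difference of the 10564 tested genes, with genes per 0.1 bin on a log axis, the 9 genes marked by red lines of arbitrary height and the 2-fold marks dotted. MBP, GYG2 and TSPAN10 lie in the sparse lower tail near -2.6, whereas PAX3, at -0.18, and ERBB3, at 0.33, lie in the bulk of the distribution.

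The order of the genes by level changed between the inputs. In MA it was SOX10, S100B, MITF, EDNRB, ERBB3, PAX3, MBP, GYG2 and TSPAN10. In NC it was SOX10, S100B, EDNRB, MBP, MITF, GYG2, PAX3, ERBB3 and TSPAN10. MBP (56.1 FPKM) and MITF (55.9 FPKM) did not differ beyond counting error in NC, where the exact 95% Poisson intervals were 55.5 to 56.8 FPKM for MBP and 54.9 to 56.8 FPKM for MITF. MITF and EDNRB lay close in MA, with intervals of 34.1 to 35.5 FPKM and 32.1 to 33.7 FPKM. In MA, 43.2% of tested genes were below MBP in level, against 88.9% in NC.

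The genes with levels most like those of MITF over the 2 inputs, by Euclidean distance of log2(FPKM + 1), were TIMMDC1 (34.4 FPKM in MA, 54.4 FPKM in NC), NCAPH2 (34.3 FPKM in MA, 54.2 FPKM in NC) and DDX56 (35.5 FPKM in MA, 53.9 FPKM in NC). Nearest to SOX10 were PSMB4 (266 FPKM in MA, 500 FPKM in NC), LMNA (281 FPKM in MA, 502 FPKM in NC) and MFSD12 (283 FPKM in MA, 519 FPKM in NC). Likeness over 2 libraries is a weak measure: 11 genes lay within a distance of 0.1 of MITF and 3 within that distance of SOX10.

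Promoter sequences show whether short motifs of the MITF and SOX families lie near the start of these genes. RefSeq promoters (GRCh38.p14, 250 bases before to 50 after a start) were matched by symbol for 6 of the 9 genes, with 10 promoters in all. Those of MITF covered 3 start sites and those of MBP and EDNRB 2 each. SOX10, S100B and ERBB3 had no match. Searched on both strands were CATGTG and CACGTG, forms of the E-box that MITF-family factors bind, and ACAAAG and ACAATG, forms of the core that SOX factors bind. The E-box form CATGTG was found in 2 promoters, and these windows are shown as the only matches of a MITF-type motif in the promoters searched. Sequences run 5' to 3' on the gene's strand, and capitals mark the motif, which reads CACATG there.
TSPAN10, chr17:81642213-81642242, plus strand, motif 80 bases before the start: aatgtgattcttCACATGactcaactgtga
EDNRB, chr13:77919816-77919845, minus strand, motif 151 bases before the start: gctgccgggtgtCACATGgtgcgtgataac
A SOX form was found in 3 promoters, 2 of MITF and 1 of MBP, which has a pair of matches. The remaining MITF promoter, the most downstream, at chr3:69936342-69936641, held none of the motifs searched. The capitals mark the motif or its reverse complement.
MITF, chr3:69739238-69739267, plus strand, 214 bases before the start: ctgctgacattgACAATGaatccaaacagg
MITF, chr3:69763610-69763639, plus strand, 189 bases before the start: ctgcaatcgcatCTTTGTaataatctcctt
MBP, chr18:77017266-77017295, minus strand, 228 bases before the start: gtattcatatctCATTGTtgtttgcaggag
MBP, chr18:77017230-77017259, minus strand, 192 bases before the start: atgcgaaccagaACAATGggacctcctctc
Over all 35116 RefSeq promoters of this length, 17.6% held CATGTG or CACGTG and 24.5% held ACAAAG or ACAATG, against 2 and 3 of the 10 promoters here. Neither count was set against a test, and CACGTG was found in none of the 10. A match is a description of these letters and not evidence of binding, and the FPKM values do not separate transcripts by start site.

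Lists of related genes place these values beside their relatives. In the neural crest transcription factor list, 15 of 25 genes reached 1 FPKM, and 2 of these were lower and 2 higher in MA by 2-fold or more. Over all tested genes the shares were 2.98% lower and 10.3% higher. The median was -0.28 over the 15 genes, against 0.11 for all genes, and 12 of them were below 0, against 43.3% of all genes. MITF, SOX10 and PAX3 are among these 12. RXRG, a retinoid X receptor, was at 15.9 FPKM in MA and 43.3 FPKM in NC (-1.39). SNAI2, the zinc finger factor of crest migration, was at 26.98 FPKM in MA and 58.6 FPKM in NC (-1.09). SNAI1, of the same family, was at 6.66 FPKM in MA and 1.41 FPKM in NC (1.67). ZEB2, another factor of crest migration, was at 27.7 FPKM in MA and 10.3 FPKM in NC (1.35). SNAI1 and SNAI2 differed in opposite directions in these libraries.

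Among close homologues of MITF, 3 genes were tested, and MITF alone was below 0. TFE3, a related lysosomal regulator, was at 39.3 FPKM in MA and 22.0 FPKM in NC (0.81). TFE3 thus exceeded MITF in the MA input (34.8 FPKM) but not in the NC input (55.9 FPKM). All 6 tested SOX genes were below 0, against 43.3% of all genes, with SOX10 the lowest and the others between -0.39, for SOX18, and -0.16. SOX18 was at 1.20 FPKM in MA and 1.88 FPKM in NC. The 6 SOX genes stayed below 0 with the values as TPM and with the median of all genes brought to 0.

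The melanoblast ligand and receptor list held 7 tested genes of 23, with a median of -0.61. FZD4, a receptor for Wnt ligands, was at 1.97 FPKM in MA and 6.65 FPKM in NC (-1.37), which together with EDNRB made 2 genes lower by 2-fold and none higher. Of all tested genes, 2.98% were lower and 10.3% higher by 2-fold or more. The ligands KITLG and EDN3 were listed at 0 in MA and under 0.01 FPKM in NC, and NRG1, a ligand of ERBB3, stayed under 1 FPKM (0.818 FPKM in MA, 0.174 FPKM in NC). ERBB2, the usual partner of ERBB3, was at 2.45 FPKM in MA and 2.40 FPKM in NC, a difference of 0.02 that became -0.07 with the median of all genes brought to 0.

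Schwann cell and myelin genes were split. Of 17 tested genes, 3 were lower and 2 higher in MA by 2-fold or more, and the median was -0.15. Over all tested genes, 2.98% were lower and 10.3% higher, so the count of higher genes lay near that share. MBP and S100B were among the lower genes. CDH19, a cadherin of Schwann cell precursors, was at 14.5 FPKM in MA and 2.12 FPKM in NC (2.31). PMP2, a fatty acid binding protein of peripheral myelin, was at 8.56 FPKM in MA and 3.57 FPKM in NC (1.07). The list had no common direction. With the median of all genes brought to 0, 1 gene was higher by 2-fold, CDH19, in place of 2. With the values as TPM, 3 were higher and 3 lower. A pseudocount of 0.1 FPKM gave 3 higher and 5 lower, and one of 5 FPKM gave 1 higher and 1 lower.

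The families of S100B, TSPAN10 and GYG2 were mixed as well. Beside the counts below, 2.98% of all tested genes were lower and 10.3% higher in MA by 2-fold or more. Of 8 tested genes in the S100 list, 2 were lower and 1 higher by 2-fold, with a median of 0.30. S100A1 was at 296 FPKM in MA and 783 FPKM in NC (-1.40), and S100P at 5.76 FPKM in MA and 0.401 FPKM in NC (2.27). Of 16 tested tetraspanins, 2 were lower and 1 higher, with a median of -0.18. These were TSPAN10, CD63, a marker of late endosomes and melanosomes, at 403 FPKM in MA and 846 FPKM in NC (-1.07), and TSPAN13, at 13.8 FPKM in MA and 5.64 FPKM in NC (1.16). Of 10 tested glycogen genes, 2 were lower, with a median of -0.42. Beside GYG2 the other was PYGL, a glycogen phosphorylase, at 2.40 FPKM in MA and 6.71 FPKM in NC (-1.18), whereas GYG1, the paralog of GYG2, was at 24.7 FPKM in MA and 27.6 FPKM in NC (-0.16).

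Reported MITF targets other than pigment enzymes had a median of -0.29 over 17 tested genes, with 3 lower and 2 higher by 2-fold. Over all tested genes the shares were 2.98% lower and 10.3% higher. BIRC7, an inhibitor of apoptosis, was at 115 FPKM in MA and 401 FPKM in NC (-1.79). ACP5, an acid phosphatase, was at 62.0 FPKM in MA and 195 FPKM in NC (-1.64). CDK2, a cell cycle kinase, was at 209 FPKM in MA and 498 FPKM in NC (-1.25). In the other direction, HIF1A, of the hypoxia response, was at 113 FPKM in MA and 33.6 FPKM in NC (1.72), and the fatty acid desaturase SCD at 731 FPKM in MA and 331 FPKM in NC (1.14). By contrast, 7 of the 8 tested pigment genes were lower by 2-fold, with a median of -1.47, against -0.67 for MITF itself. Among them, MLANA was at 122 FPKM in MA and 375 FPKM in NC (-1.62), DCT at 65.2 FPKM in MA and 191 FPKM in NC (-1.54), and TYR at 98.1 FPKM in MA and 248.8 FPKM in NC (-1.33). RAB38 was at -1.47 and GPR143 at -1.46, whereas TYRP1, at -0.53, was the gene of the list that stayed within 2-fold.

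**Figure D3:**
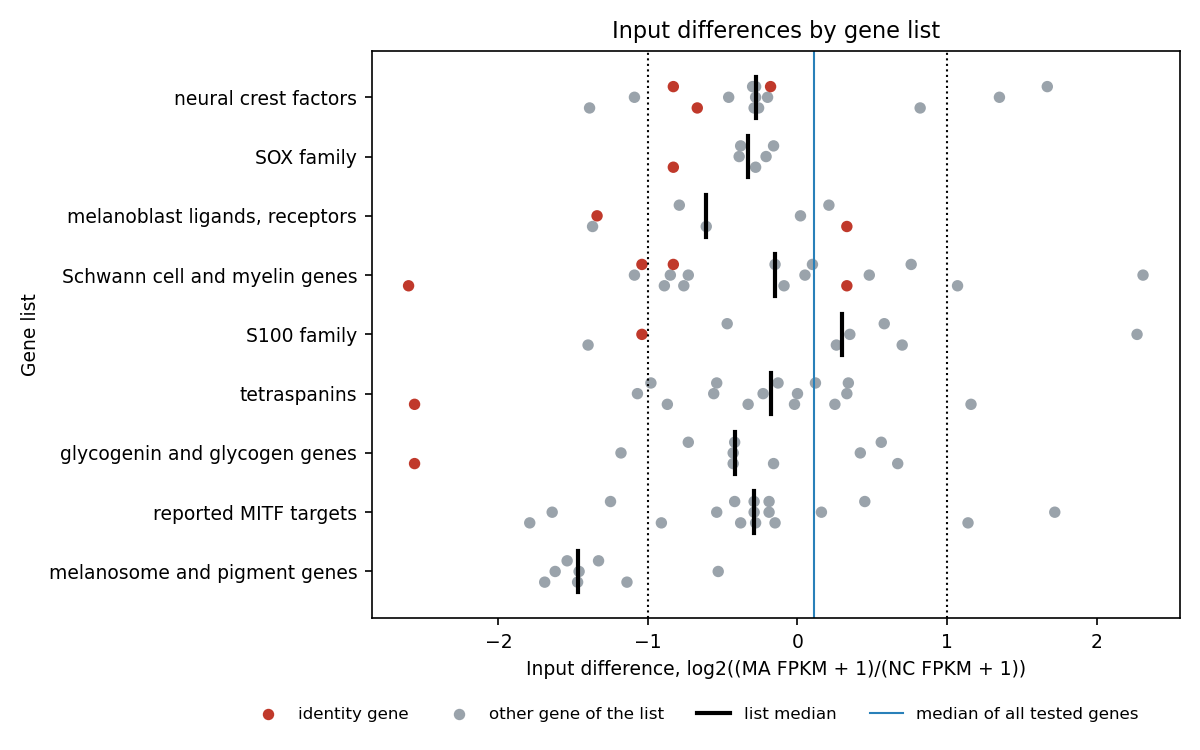
Log2 input difference of each tested gene by list, with the genes of the present account in red, other list genes in grey, the list median as a black bar, the median of all tested genes as a blue line and the 2-fold marks dotted. The pigment genes lie furthest to the left as a list, with a median of -1.47, whereas the other lists spread on both sides of the median of all genes except the SOX family, which lies below 0 throughout.

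In the m6A lists, the 9 genes had 20 peaks in MA and 22 peaks in NC. The peaks covered 10801 exonic bases in MA and 11545 in NC. Of the 8 genes with peaks in both lists, 2 had more peaks in MA (MITF and PAX3) and 3 had fewer (MBP, GYG2 and EDNRB), against 20.6% and 31.6% of the 8415 genes with a peak in both lists, and the remaining 3 had equal numbers. The exonic length was longer in MA in 3 of the 8 genes, against 45.5% of all such genes, and these shares are near the background. By region, 15 of 20 MA regions (75%) shared 1 bp or more with an NC region of the same strand, and 15 of 22 NC regions (68.2%) overlapped a MA region. Over all genes the shares were 79.6% of MA regions and 73.8% of NC regions, near those of these genes at this setting. The whole lists also hold genes with a peak in 1 list only, whereas 8 of the 9 genes were kept for peaks in both. Part of this comparison was therefore set by the choice, and the NC regions of TSPAN10, which had no MA peak, were unshared. Among peaks with a fold enrichment of 2 or more the shares were further apart, at 69.2% of the MA regions and 50% of the NC regions of these genes, against 79.5% of MA regions and 70.5% of NC regions over all genes. Peak positions are those of the authors' lists on GRCh38.p13, as are the features assigned to them, and fold enrichment is the authors' value of RIP over input. Spans are longer than exonic lengths where a peak crosses introns, and the overlap of spans can then lie in an intron.

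By the authors' labels, 1 per peak, most peaks were in 3' UTRs or at start codons. Of the MA peaks, 11 were in a 3' UTR (55%), 5 at a start codon (25%), 2 at a stop codon and 1 each in a 5' UTR and an exon. Of the NC peaks, 11 were in a 3' UTR (50%), 5 at a start codon (22.7%), 3 at a stop codon, 2 in an exon and 1 in a 5' UTR. Start codon peaks made up 4.78% of the whole MA list and 6.06% of the whole NC list, and 3' UTR peaks 42.9% of the MA list and 42.2% of the NC list. The start codon peaks here came from 5 genes in MA and 3 genes in NC, and those of 1 gene are not independent. In MA, those of SOX10, MBP and EDNRB were longer in exonic bases than 98.2%, 96.4% and 86.1% of the list. That of S100B was longer than 53% and that of MITF than 2.56%. A label does not place the m6A within a long peak, so these shares do not site it at start codons. Nor do the 3' UTR labels always lie at the 3' end. In MA, that of PAX3 at 222293943 to 222295616 lay upstream of its stop codon peaks. That of MBP at 77125096 to 77125295 lay upstream of its start codon peak. Some shared peaks also carried different labels in the 2 lists, as in PAX3 and S100B.

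**Figure D4:**
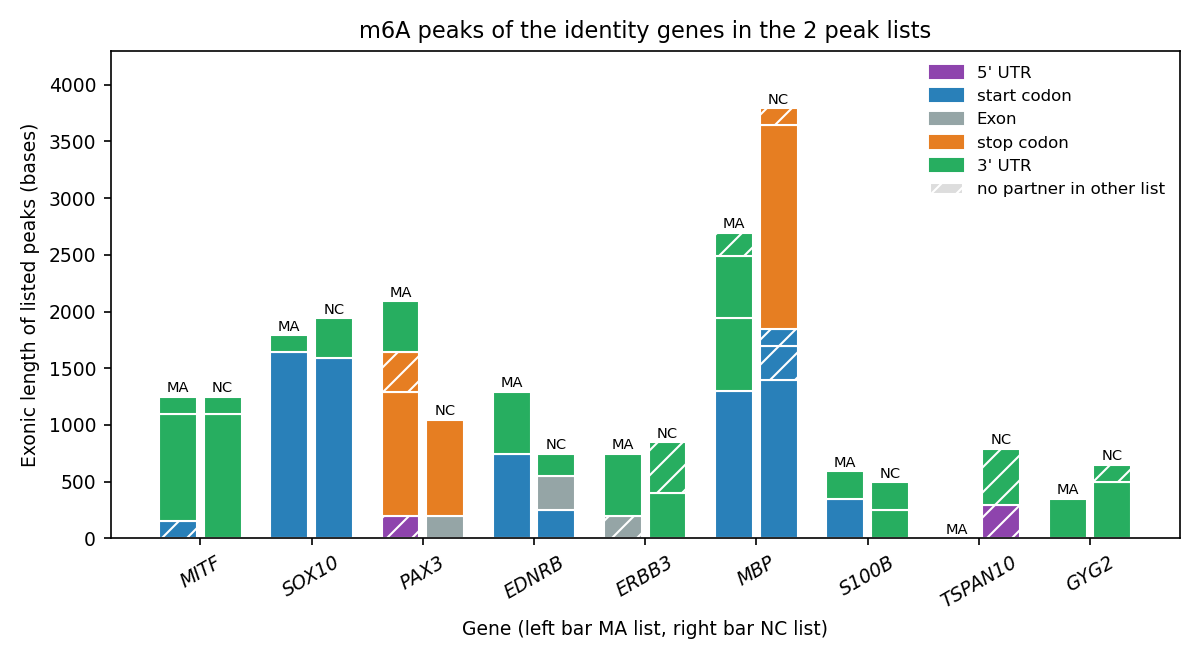
Exonic length in bases of the m6A peaks of each gene, with the MA list as the left bar and the NC list as the right bar of each pair, 1 block per peak coloured by the authors' feature and hatched where no region of the other list overlaps. MBP has the longest total in both lists, at 2694 bases in MA and 3791 bases in NC, and TSPAN10 has blocks in NC only.

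SOX10 had 2 peaks in each list, and each had a partner. A peak annotated at the start codon spanned positions 37973555 to 37984555 of chromosome 22 in MA (1642 exonic bases, fold 3.06) and 37973605 to 37984555 in NC (1592 exonic bases, fold 3.50). A smaller peak, in the 3' UTR, lay at 37973157 to 37973306 in MA (fold 1.51) and 37973108 to 37973456 in NC (fold 1.72). That of NC had a false discovery rate of 0.0708 in the authors' list, where 0.521% of all peaks were above 0.05, while that of MA had 0.000589. POLR2F has a span that overlaps that of SOX10 in the RefSeq table, and both peaks were listed under SOX10 alone.

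MITF had 3 peaks in MA and 2 in NC, and the total was 1249 exonic bases in both. The main peak lay at 69956521 to 69965637 of chromosome 3 in MA (949 exonic bases, fold 3.42) and reached further upstream in NC, at 69949160 to 69965637 (1099 exonic bases, fold 4.29). The main peak was labelled 3' UTR in both lists, as was a smaller peak at the end of the gene. The smaller peak was at 69967933 to 69968082 in MA (fold 1.81) and 69967983 to 69968132 in NC (fold 1.66), overlapping by 100 bases. The remaining MA peak, at the start codon, had 150 exonic bases over 69739614 to 69763565 (fold 1.86) and no partner in NC. That fold exceeded only 10.5% of peaks in the MA list.

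PAX3 had 4 peaks with 2089 exonic bases in MA and 2 peaks with 1044 bases in NC. Its input level was 18.9 FPKM in MA and 21.5 FPKM in NC, and a link of level to peaks was not tested. Its shared stop codon peak spanned 222200979 to 222220291 of chromosome 2 in MA (fold 10.0) and 222201079 to 222220142 in NC (fold 5.40). Within their own lists these exceeded 98.3% of MA peaks and 77.2% of NC peaks in fold, and folds of separate lists are not compared. A second shared peak ended at 222295616 in both lists, labelled 3' UTR in MA (448 exonic bases) and exon in NC (199 exonic bases). The peaks found in MA only were at 222298750 to 222298948, in the 5' UTR (fold 1.60), and at 222232146 to 222293844. The latter was also labelled stop codon (348 exonic bases, fold 2.46).

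The peaks of EDNRB were longer in total in MA. Around the start codon, 1 MA peak of 744 exonic bases (77918244 to 77919552 of chromosome 13) covered 2 NC peaks of 298 and 249 exonic bases, at 77918244 to 77918541 and 77918640 to 77919453. In the 3' UTR the MA peak had 546 bases and the NC peak 199 bases, and both ended at 77898207. EDNRB therefore had 1290 exonic bases of peaks in MA and 746 in NC. Its input level was lower in MA, and a link of level to peak length was not tested. All its regions had a partner in the other list.

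ERBB3, the gene with the higher input level in MA, had a shared 3' UTR peak and an unshared peak in each list. The shared peak lay at 56101569 to 56102115 of chromosome 12 in MA (fold 6.35, above 92.7% of MA peaks) and at 56101668 to 56102065 in NC (fold 3.78, above 53.2% of NC peaks). An exon peak at 56099656 to 56099946 was in the MA list only (fold 1.77), and a 3' UTR peak at 56102860 to 56103306 in the NC list only (fold 2.03). Both unshared peaks were low in fold within their lists.

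MBP had 4 peaks in MA and 5 in NC. Its input level was 6.68-fold lower in MA, and a link of level to peaks was not tested. A start codon peak over 77016102 to 77087386 of chromosome 18 in MA (1296 exonic bases, fold 5.50) matched 77016052 to 77087436 in NC (1396 exonic bases, fold 4.04). At the 3' end, MA peaks at 76979032 to 76979680 and 76979879 to 76980427 fell inside 1 NC peak of 1795 exonic bases, 76978883 to 76987772. NC peaks at 77132606 to 77132905 and 77133559 to 77133708, both annotated at the start codon with folds of 4.00 and 4.11, had no partner in MA. A MA peak of 200 bases at 77125096 to 77125295, labelled 3' UTR, had none in NC. Nor had an NC peak of 150 exonic bases within 76990011 to 77012813 one in MA. MBP thus had the most unshared NC peaks of the 9 genes, 3 of its 5.

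S100B had 2 shared peaks in each list. The 3' UTR peak at 46598997 to 46599242 of chromosome 21 had the same bounds in both lists (fold 1.91 in MA, 2.19 in NC). The other began at 46599389 in MA and at 46599340 in NC, and reached the start codon in MA only, with 345 exonic bases in MA and 247 in NC. GYG2 had 1 peak in MA, at 2881475 to 2881824 of chromosome X (350 bases, fold 4.00), inside an NC peak at 2881375 to 2881873 (499 bases, fold 2.68). A second NC peak of GYG2, at 2882571 to 2882720 (fold 1.85), had no partner in MA.

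TSPAN10 had 2 peaks in NC and 0 in MA. The NC peaks were in the 5' UTR, at 81642344 to 81645181 of chromosome 17 (295 exonic bases, fold 2.86), and in the 3' UTR, at 81648068 to 81648559 (492 bases, fold 2.37). The level of TSPAN10 was 0.993 FPKM in the MA input, where 64.2% of the 1358 genes between 0.5 and 2 FPKM had a peak. Of 245 genes with an NC peak that were lower in MA by 2-fold or more, 14.7% had no MA peak, against 8.75% of all tested genes with an NC peak. The low input level of TSPAN10 in MA stands beside its missing MA peak, and its part in that was not tested.

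**Figure D5:**
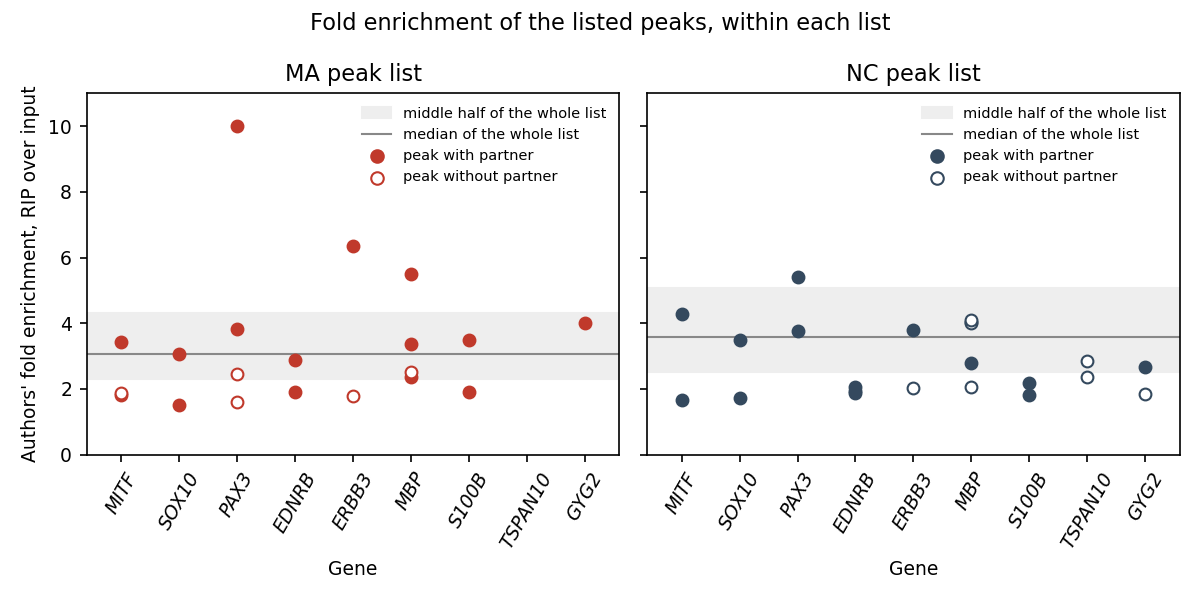
Fold enrichment of each listed peak by gene in the MA list (left) and the NC list (right), filled where a region of the other list overlaps and open where none does, with the median and the interquartile range of each whole list as a line and a grey band. In MA 8 of 20 peaks lie above the list's median of 3.07 and in NC 7 of 22 above its median of 3.57, and the highest is that of PAX3 in both, at 10.0 in MA and 5.40 in NC.

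Most peaks of these genes had folds below the median of their own list. The median fold was 2.69 over the 20 MA peaks and 2.53 over the 22 NC peaks, each below the median of its list (3.07 in MA, 3.57 in NC). The 5 MA peaks without a partner had folds of 1.60 to 2.50, and the 7 NC peaks without a partner had folds of 1.85 to 4.11, the highest of them in MBP. Peaks of the same gene share its input coverage and are not independent.

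The same lists of relatives can be set against the peaks. All 15 tested neural crest factors had a peak in both lists, with 46 peaks in MA and 40 in NC, against 76% of all tested genes with a peak in both. MITF, SOX10 and PAX3 were kept by the rule for having such peaks, so part of this count was set by the choice. All 7 tested melanoblast ligands and receptors had a peak in both, with 20 peaks in MA and 18 in NC, and EDNRB and ERBB3 were among them by the same rule. Of 17 tested Schwann cell and myelin genes, 12 had a peak in both, with 31 peaks in MA and 36 in NC over the list. MBP, S100B, ERBB3 and SOX10 were among the 12 by the same rule. Of 16 tested tetraspanins, 7 had a peak in both lists, so TSPAN10 belonged to a family in which 7 members had none at all.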

How the data were processed

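The series holds OMM2.3 cells in 4 libraries: for MA and for NC, 1 input and 1 m6A RIP library. Gene levels are FPKM as deposited by the authors, 1 value per gene and input. Peak lists hold, per the file headers, a p-value and false discovery rate, a fold enrichment (ratio of RIP to input) and an exonic length for each peak, as deposited by the authors. Tools listed in the submitters' processing notes, without versions, are ChIPseeker, deepTools, HISAT, HISAT2 and Trimmomatic, with the build GRCh38.p13. The sources used here do not name the counter or the peak caller.

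Differences are log2((MA FPKM + 1)/(NC FPKM + 1)) over genes that reached 1 FPKM in either input, with no test, since each group has 1 library. Counting error (exact 95% Poisson and binomial intervals) used the smallest whole reads that reproduce a gene's FPKM in both inputs within 0.0003 reads, searched over gene lengths up to 60000 bases. This resolved 100% of 13055 genes, against 18.2% after the values were moved slightly. PCR copies cannot be separated from molecules here, so intervals cover counting error only. FPKM depends on the authors' gene lengths and totals, and a few abundant genes can move all other values. Peak starts were raised by 1 base to count from 1, and regions on the same strand were shared at 1 bp or more of overlap. Work used Python 3.11.15, numpy 2.4.6, pandas 2.3.3, scipy 1.17.1 and matplotlib 3.10.9, and was tested on simulated data.

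The genes and lists were chosen with earlier results of these data known. Named from each list were genes at or beyond 2-fold, up to 6 by size, or otherwise the 2 largest differences; the 3 nearest genes to MITF and to SOX10 were named by distance. TYRP1, OCA2, SLC45A2, RBFOX3, GYG1, ERBB2 and the ligands were named after their values were seen. The list of S100 genes includes S100PBP, which is a binding partner. Alternatives were other pseudocounts, scalings, level filters, overlaps and peak thresholds. Some results of the Schwann cell and myelin list are not reported here.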

Additional observations from a re-analysis of the deposited data

How the results depend on the processing

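No paired analysis was possible because each treatment has 1 input and 1 RIP library, and for the same reason no replicate could be left out. Of 54 recomputed input differences of the 9 genes, none changed direction and 22 moved by more than the distance from the centre of the counting interval to its edge. The count of these genes lower by 2-fold, 5, was 4 with a pseudocount of 5 FPKM and with TPM, in both cases without S100B, and 5 under the other 4 alternatives. Over all genes, the 1087 higher and 315 lower became 1842 and 325 with TPM, where 11276 genes in place of 10564 passed the level filter, 767 and 443 with a median difference of 0, 1801 and 450 with a pseudocount of 0.1 FPKM, and 273 and 154 with a pseudocount of 5 FPKM. The median over all genes, 0.11, was 0.21 with TPM. Of the peaks of these genes, 9 of 13 MA regions and 8 of 16 NC regions were shared at a fold enrichment of 2 or more (79.5% in MA and 70.5% in NC over all genes), and 6 of 10 MA regions and 6 of 12 NC regions among peaks within 1 exon (69.5% in MA and 59.5% in NC over all genes), an alternative chosen after seeing the data. The cause was not tested, although both alternatives hold fewer peaks. Sharing by overlap of exonic blocks was not run, since the lists give none. The depth of the RIP libraries is unknown here, which limits what an unshared peak shows.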
